A study of Homo sapiens with 5 samples.

Results

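Footprints of ribosomes on 8 genes, of 17297 counted, were followed in a colorectal carcinoma line: CPA4, RUNX2, TGM2, TMEM158, ZEB1, SNAI2, NRP1 and VIM. They were chosen as rows of the deposited gene table by name, several of them because footprints on them were higher in cells with mutated eIF6, so the mutant-to-wild-type values of all 8 are a description and carry no test. The label under which they were gathered, mesenchymal and invasion genes that rise, held for 7 of them in these libraries and not for VIM, whose groups overlapped. Libraries came from HCT116, an epithelial tumour line, with 2 of genotype Wt (WT replicates 1 and 2) and 3 of genotype eIF6-N106S (MUT replicates 1 to 3), an asparagine-to-serine change made homozygous by CRISPR/Cas9 editing. Cells were harvested at 60 to 70% density. The labels speak of mutant clones but do not tie a library to a clone or a culture, so p-values speak only of library-to-library spread, and that spread may be technical.

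Epithelial to mesenchymal transition (EMT) is the programme by which epithelial cells loosen their junctions, change their cytoskeleton and gain the ability to migrate. ZEB1 and SNAI2 are zinc finger repressors that bind E-box sequences in promoters of epithelial genes such as CDH1 (E-cadherin), and VIM (vimentin) is the intermediate filament most used as a mesenchymal marker. In colorectal cancer this programme is associated with invasion at the tumour front. Ribosome profiling counts the mRNA fragments shielded by ribosomes, and libraries were scaled to each other, so a level here is relative to the other genes and a rise can come from more mRNA or from more ribosomes per mRNA. In bulk extracts a change in the number of expressing cells and a change per cell cannot be told apart.

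A start-site window was matched for CPA4, RUNX2, TMEM158, ZEB1 and VIM, 5 of the 8, and not for TGM2, SNAI2 and NRP1. Upstream sequences are shown for 3 members that were higher and held matches to the motifs named below. For RUNX2 and ZEB1 the window with the most matches is shown. The sequences shown are thus richer in matches than the members' other windows. TMEM158, also higher, held no match and is not shown. They are the 250 bases before an annotated start in RefSeq, build GRCh38.p14, read 5′ to 3′ on the gene's strand. Capitals mark 4 searched motifs: the E-box CAGGTG, the RUNX motif TGTGGT and the TEAD motif GGAATG on both strands, and the AP-1 motif TGANTCA, which reads alike on both. CPA4 lies at chr7:130292911-130293160 (plus strand), RUNX2 at chr6:45328080-45328329 (plus strand, the upstream one of 2 windows) and ZEB1 at chr10:31318966-31319215 (plus strand, window 3 of 7).
CPA4: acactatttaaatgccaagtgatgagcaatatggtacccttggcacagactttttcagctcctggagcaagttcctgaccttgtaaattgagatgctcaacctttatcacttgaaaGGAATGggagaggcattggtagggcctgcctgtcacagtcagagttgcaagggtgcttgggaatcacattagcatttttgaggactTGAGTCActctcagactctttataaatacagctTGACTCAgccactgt
RUNX2: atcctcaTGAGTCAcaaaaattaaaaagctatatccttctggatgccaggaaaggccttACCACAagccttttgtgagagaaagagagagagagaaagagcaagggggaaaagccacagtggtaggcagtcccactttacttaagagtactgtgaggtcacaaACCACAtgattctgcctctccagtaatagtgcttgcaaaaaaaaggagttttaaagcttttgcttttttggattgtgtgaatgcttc
ZEB1: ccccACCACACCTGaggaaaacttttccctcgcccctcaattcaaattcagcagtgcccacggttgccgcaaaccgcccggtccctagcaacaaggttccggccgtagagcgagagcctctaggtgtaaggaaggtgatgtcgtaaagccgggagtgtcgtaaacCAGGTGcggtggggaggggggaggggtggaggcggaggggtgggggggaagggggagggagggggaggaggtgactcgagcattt

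CPA4 had the AP-1 letters at 48 and 15 bases before its start and the TEAD letters at 134. RUNX2 had an AP-1 match at 243 bases before its upstream start and RUNX matches at 191 and 87, with a further pair just after the start. The ZEB1 window had E-boxes at 242 and 85 bases before the start, the first overlapping a RUNX match, and a further one after it. Over the whole windows (250 bases before to 50 after the start), 7.71% of 35116 RefSeq windows held TGANTCA, 13.1% TGTGGT, 20.6% CAGGTG and 14% GGAATG. Of the members' 12 windows, the AP-1 motif was in 2, those of CPA4 and RUNX2, and the E-box was in 2, both of ZEB1. The RUNX motif was in windows of RUNX2, ZEB1 and VIM, and the TEAD motif in windows of CPA4, RUNX2 and ZEB1. TMEM158 held none of the 4 motifs and VIM only a RUNX match, at 96 bases before its start. A match is a run of letters, not an occupied site.

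The libraries held 2095217 to 3821176 counts, the smallest in WT replicate 1. EIF6 itself was at 178 ± 9.16 CPM in WT (SD, n = 2) against 157 ± 10.7 CPM for MUT (SD, n = 3), CPM being counts scaled to a common library total by the TMM method, with an adjusted p of 0.215 in edgeR's quasi-likelihood test. A change of 1 residue need not alter a footprint count, so this does not check the labels. Genes assigned to the Y chromosome alone held 344 and 641 raw counts in the WT libraries and 139 to 151 in the MUT libraries. Library totals were 2095217 and 3128144 in WT and 3076137 to 3821176 in MUT. The MUT libraries thus held fewer of these counts at a similar or greater depth. The part of this difference in the results was not tested. Over 11991 tested genes edgeR called 10% higher in MUT and 12.9% lower (adjusted p under 0.05; 1203 and 1544 genes). Higher genes made up 43.8% of these calls, but 56.3% when scaled by the upper quartile and 62.8% when scaled by library size alone. Colon epithelial markers summed to 1038 and 1135 CPM in WT and to 1106 to 1413 CPM in MUT. KRT8 and KRT19 (keratins) rose (adjusted p 0.0199 and 0.0463, with both calls lost without WT replicate 2 at 0.191 and 0.221 and also without WT replicate 1, MUT replicate 1 or MUT replicate 2, and KRT19 in DESeq2 at 0.0604), whereas CDH1 and EPCAM (an epithelial adhesion molecule) fell, and VIL1 was at or near 0. Fibroblast markers summed to 6.85 to 9.24 CPM over all 5 libraries, endothelial markers to 4.88 to 11 CPM and leukocyte markers to at most 1.32 CPM, and each of these lists had 0 genes with a mean of 10 CPM or more.

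All 8 members passed the filter on low counts, although SNAI2 and NRP1 passed it only through the MUT libraries. Summed over the 8 genes, footprints came to 75.9 and 64.4 CPM in WT and to 234, 212 and 234 CPM in MUT. CPA4 and TGM2 made up 45.7% and 47.4% of that sum in WT and 58.8% to 63.3% in MUT, so the sum mostly follows these genes. In CPM every MUT library lay above every WT library for 7 of the 8, where 25.4% of all tested genes did so, and the same 7 passed edgeR's threshold upward, against 10% of all genes. Fitted folds were at least 2 for 6 of the 8, the exceptions being ZEB1 and VIM, against 1.79% of all genes. The members were chosen on this contrast, so nothing is read from these counts.

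**Figure D1:**
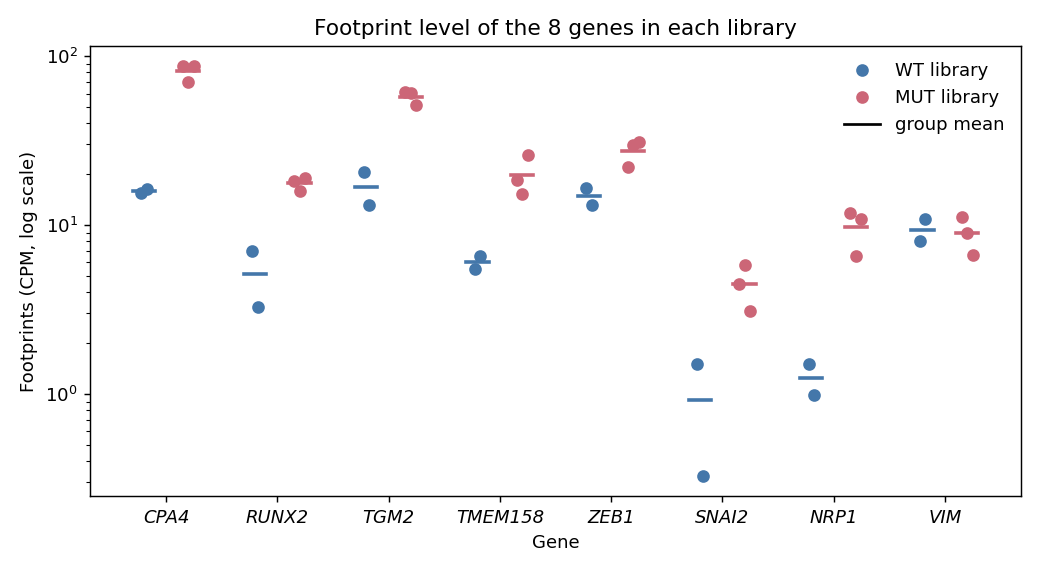
Footprints on each of the 8 genes in CPM (log axis), with WT libraries in blue, MUT libraries in red and short lines at the group means. For 7 genes all MUT points lie above all WT points, while for VIM the WT points (7.99 and 10.8 CPM) lie among the MUT points (6.67 to 11.1 CPM).

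The EMT transcription factors came first by role. ZEB1 (gene ID 6935, chromosome 10, 31318417 to 31529804) had 16.5 and 13.1 CPM in the WT libraries and 21.9, 29.8 and 31 CPM in MUT replicates 1 to 3. The groups did not overlap, but MUT replicate 1 stood only 1.33-fold above WT replicate 1. The log2 fold change of MUT over WT was 0.94 (SE 0.22), a 1.91-fold difference. It was 0.76 without WT replicate 2 (edgeR adjusted p 0.109). ZEB1 and its antisense neighbour ZEB1-AS1 overlap, and whether the deposited counting used strand is not known from the sources at hand.

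SNAI2 (gene ID 6591, chromosome 8, 48917598 to 48921429), the repressor also called Slug, was barely counted. It had 3 and 1 footprints in WT and 14, 22 and 12 in MUT, which is 1.5 and 0.327 CPM against 4.45, 5.79 and 3.08 CPM. From the 4 and 48 summed counts the ratio of MUT to WT was 5.60, with a 95% exact binomial interval of 2.05 to 21.4 that covers counting error only. The lowest MUT library was 2.06-fold above the highest WT library. Its log2 fold change of 2.42 went to 1.55 without WT replicate 2 (edgeR adjusted p 0.289) and to 3.62 without WT replicate 1, and DESeq2 gave it no adjusted p, so its size is poorly fixed at this depth.

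RUNX2 (gene ID 860, chromosome 6, 45328330 to 45551082), the RUNX factor that directs osteoblast differentiation, had 6.99 and 3.27 CPM in WT and 18.1, 15.8 and 19 CPM in MUT. The MUT libraries were close together, with a coefficient of variation of 9.35% against 12.5% from counting alone, while WT replicate 2 was at 0.468 of WT replicate 1. Its log2 fold change was 1.87 (SE 0.32), ranging from 1.34 when WT replicate 2 was left out to 2.41 when WT replicate 1 was. SUPT3H, which overlaps the RUNX2 span, was at 25.8 ± 3.28 CPM in WT (SD, n = 2) against 24.6 ± 2.16 CPM for MUT (SD, n = 3), with an edgeR adjusted p of 0.762.

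CPA4 (gene ID 51200, chromosome 7, 130293161 to 130324180), a secreted carboxypeptidase that trims residues from the C-terminus of peptides, had the best-counted change. It had 15.5 and 16.3 CPM in WT and 86.8, 70 and 86.7 CPM in MUT. WT libraries differed 1.06-fold, MUT libraries 1.24-fold, and the lowest MUT library was 4.28-fold above the highest WT library. The ratio of summed counts (81 and 877) was 5.06, with a 95% interval of 4.02 to 6.43 that covers counting error only. The MUT coefficient of variation, 11.9%, was above the 5.85% of counting alone. The log2 fold change lay between 2.26 and 2.44 in all 14 alternative fits.

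TGM2 (gene ID 7052, chromosome 20, 38127385 to 38168475), the tissue transglutaminase that cross-links matrix proteins, had 20.5 and 13.1 CPM in WT and 61.4, 60 and 51.1 CPM in MUT. As for RUNX2, WT replicate 1 was the higher of the WT libraries, and the groups stayed 2.49-fold apart at their nearest points. Its log2 fold change was 1.83 (SE 0.19), from 1.49 without WT replicate 2 to 2.12 without WT replicate 1.

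The membrane proteins were TMEM158 and NRP1. TMEM158 (gene ID 25907, chromosome 3, 45224466 to 45226287), first described as a gene induced by oncogenic RAS during senescence, had 5.49 and 6.54 CPM in WT and 18.4, 15.3 and 25.9 CPM in MUT. MUT replicate 3 was 1.70-fold above MUT replicate 2, and the MUT coefficient of variation, 27.5%, was above the 11.8% of counting alone. The log2 fold change was 1.70 (SE 0.30), and 1.45 without MUT replicate 3.

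NRP1 (gene ID 8829, chromosome 10, 33177493 to 33334667), a co-receptor for class 3 semaphorins and VEGF, had 3 and 3 footprints in WT and 37, 25 and 42 in MUT. In CPM these were 1.5 and 0.981 against 11.8, 6.58 and 10.8, and the groups were 4.39-fold apart at their nearest points. The ratio of summed counts was 8.09, with a 95% interval of 3.60 to 22.6 that covers counting error only. The MUT coefficient of variation, 28.4%, was above the 17.0% of counting alone, so the fold is known only within a wide range.

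VIM (gene ID 7431, chromosome 10, 17228241 to 17237593) was the exception. It had 7.99 and 10.8 CPM in WT and 11.1, 8.95 and 6.67 CPM in MUT, so the groups overlapped. The log2 fold change was -0.12 (SE 0.32), and the ratio of summed counts was 0.905 with a 95% interval of 0.635 to 1.31. The interval covers counting error only. VIM and VIM-AS1 overlap, with the same limit on strand as for ZEB1.

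**Figure D2:**
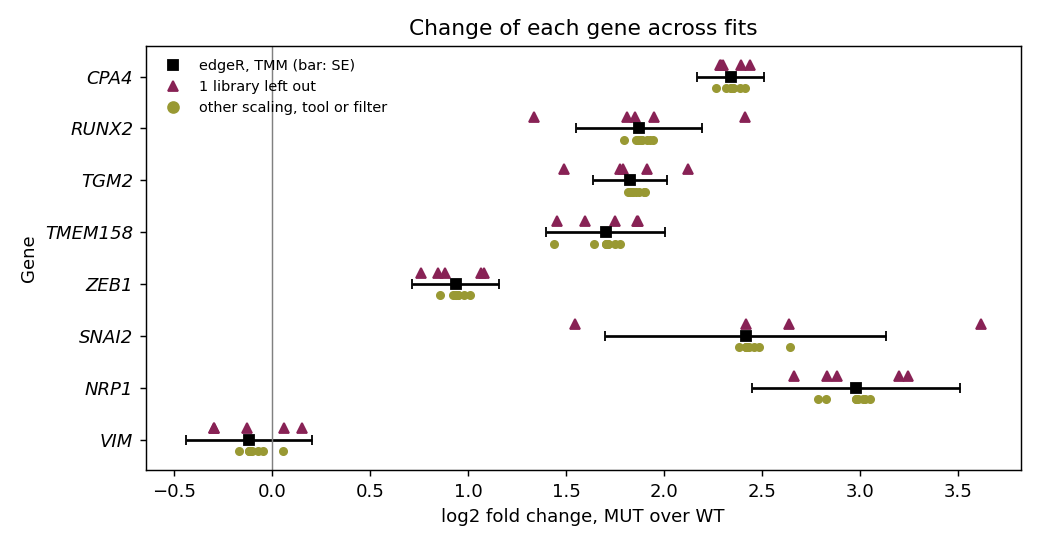
Log2 fold change of MUT over WT for each gene in the edgeR fit (black squares, bars are SE), with 1 library left out (purple triangles) and under another scaling, tool or filter (olive circles). RUNX2 and SNAI2 moved most when a WT library was left out, CPA4 stayed between 2.26 and 2.44, and VIM lay on both sides of 0.

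For each member the tested genes with the nearest centred log2 CPM profile over the 5 libraries were found (Euclidean distance, mean of at least 10 CPM). With 5 points that share their libraries this is a description. Several members were picked for their rise in these same libraries, so members lying near each other follows from that choice. Profiles were centred but not scaled, so distances tend to be smaller between genes that change little. The nearest to TGM2 was THBS1 (thrombospondin 1) at 0.404, then RUNX2 at 0.471, and RUNX2 in turn was nearest to TGM2. THBS1 was also second nearest to RUNX2, at 0.505. NRP1 was nearest to CPA4 (0.774), CPA4 to TMEM158 (0.838) and SNAI2 to RUNX2 (1.08). TMEM158 was nearest to CLPTM1 (0.489) and TP53I3 (0.507). ZEB1 had closer neighbours in IGFBP6 at 0.149 and the growth factor PDGFC at 0.158, and VIM in ANKRD49 at 0.151 and KLHL7 at 0.206, which like VIM did not pass (adjusted p 0.655 and 0.404).

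Families and partners of the members were read from 11 gene lists that leave the members out, of which 162 genes were tested with edgeR's quasi-likelihood test. Of these 17 rose and 26 fell (10.5% and 16%), near the 10% and 12.9% of all genes, and the lists' joint median log2 fold change was 0.02 against 0.00 for all genes. The numbers were 11 risen genes without WT replicate 1 or MUT replicate 1, 10 with DESeq2, and 14 fallen genes without WT replicate 2. The lists were chosen with earlier results of these data known, so their shares are a description. They went in different directions. Genes named below outside the naming rule, such as CDH1 and EPCAM, were chosen after their values were seen.

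ZEB2, the paralog of ZEB1, had at most 5 counts in a library and was not tested. SNAI1, the paralog of SNAI2, was at 24.5 ± 2.84 CPM in WT (SD, n = 2) against 22.4 ± 1.57 CPM for MUT (SD, n = 3), with an adjusted p of 0.623. Of 11 other EMT transcription factors tested 2 rose and 2 fell (18.2% each, where 10% of all tested genes rose and 12.9% fell). SOX9, a progenitor factor of the gut, rose 1.32-fold and ETS1 1.47-fold (adjusted p 0.00427 and 0.0139), while SOX4 fell 1.86-fold and FOXC1 1.41-fold (1.67e-05 and 0.00638). Without WT replicate 2, SOX9, ETS1 and FOXC1 lost their calls (0.087, 0.286 and 0.0544). FOXC1 also lost it without WT replicate 1 (0.0523) and ETS1 without MUT replicate 1 (0.0601) and in DESeq2 (0.0658). RUNX1 rose from 78.4 ± 7.77 CPM (SD, n = 2) to 138 ± 4.48 CPM (SD, n = 3), 1.78-fold with an adjusted p of 9.99e-06. RUNX3 did not pass (0.328). CBFB, the shared partner subunit through which RUNX factors bind DNA firmly, fell 1.43-fold from 278 ± 16.6 to 194 ± 19.0 CPM (adjusted p 0.00059), the opposite direction to RUNX1 and RUNX2. Of the bone targets of RUNX2 only the collagenase MMP13 was counted well enough to test, at 3.06 and 3.01 CPM (0.98).

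Corepressors and turnover factors of ZEB and SNAI proteins showed 0 rises and 3 falls among 20, with a median of -0.11. These are 0% and 15%, where 10% of all tested genes rose and 12.9% fell. The deacetylase HDAC2 fell 1.39-fold, the Polycomb subunit SUZ12 1.24-fold and the ubiquitin ligase SIAH1 1.35-fold (edgeR adjusted p 0.00209, 0.02 and 0.0172). At an unadjusted p under 0.05, 2 genes were higher, CTBP1 and AJUBA, with log2 fold changes of 0.22 and 0.35, and DESeq2 and limma-voom called 0 higher. DESeq2 called 1 of the 3 falls, with SUZ12 at 0.0658 and SIAH1 at 0.0837, and SUZ12 was also lost when scaled by library size alone (0.0701). All 3 falls ended without WT replicate 2 (0.165, 0.243 and 0.275), and those of SUZ12 and SIAH1 also without MUT replicate 1 (0.092 and 0.0615).

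Other carboxypeptidases of the CPA4 family gave 0 calls of 5 tested in edgeR, where 22.9% of all tested genes were called. At an unadjusted edgeR p under 0.05 there was 1 (AGTPBP1, 0.0291), and DESeq2 and limma-voom gave 0 calls. Another 8 were too thinly counted to test. Among transglutaminases other than TGM2 only TGM6 was tested, with 6.52 ± 1.37 CPM in WT (SD, n = 2) against 3.33 ± 1.87 CPM for MUT (SD, n = 3) and an adjusted p of 0.162. Intermediate filament genes and their linkers, the family of VIM, gave 1 rise and 1 fall among 11. Each is 9.09%, near the 10% and 12.9% of all tested genes. The lamin LMNA rose 1.5-fold, from 206 ± 5.90 to 308 ± 30.7 CPM, and LMNB1 fell 1.23-fold (adjusted p 0.000243 and 0.0229). LMNB1 lost its call without WT replicate 2 (0.208), MUT replicate 1 (0.0813) or MUT replicate 3 (0.0616), and also in DESeq2 (0.0513) and under upper-quartile (0.0517) or library-size scaling (0.0787).

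Semaphorin, plexin and VEGF genes, listed as families that hold ligands and partners of NRP1, rose where they changed. Not every gene listed is itself a ligand or partner of NRP1. Of 14 genes of this list tested, which also holds the adaptor GIPC1, 4 rose (28.6%) and 0 fell, with a median of 0.34. Among all tested genes 10% rose and 12.9% fell. This list too was chosen with earlier results known, so its share is a description. SEMA3C, a secreted ligand of neuropilin and plexin receptors, went from 29.3 ± 4.46 to 65 ± 8.19 CPM, 2.26-fold. PLXND1, a plexin that pairs with neuropilins, rose 1.92-fold, PLXNB2 1.47-fold and GIPC1, which binds the cytoplasmic tail of NRP1, 1.39-fold. Adjusted p for these 4 was 1.49e-05, 0.00255, 0.0145 and 0.00413. The count of falls was also 0 at an unadjusted p under 0.05 and in DESeq2 and limma-voom, while DESeq2 called 3 of the 4 rises, with PLXNB2 at 0.0681. Without WT replicate 1 only SEMA3C and PLXND1 stayed called, and PLXNB2 was also lost without MUT replicate 1 (0.0532). NRP2 had at most 5 counts in a library, and VEGFA, a ligand of NRP1, had a log2 fold change of -0.17 that did not pass (0.467).

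Mesenchymal and matrix genes were counted mostly at low level. Of 41 counted genes of this list, 26 were tested, 5 rose and 2 fell, and the median log2 fold change was 0.19. Rises were 19.2% and falls 7.69% of those tested, against 10% and 12.9% of all tested genes. The receptor kinase AXL went from 31.5 ± 4.84 CPM (SD, n = 2) to 63.4 ± 4.07 CPM (SD, n = 3), 2.04-fold, and THBS1 from 6.03 ± 2.06 to 18.2 ± 1.81 CPM, 3.15-fold (adjusted p 3.32e-05 and 0.00032). ACTA2 (smooth muscle actin) and TPM2 (a tropomyosin) rose 1.75-fold and 1.22-fold (0.0179 and 0.031). CNN3 (a calponin) and S100A4 fell 1.34-fold and 1.27-fold (0.00241 and 0.0132). CCN2, a matricellular protein with counts of 3 and 4 for WT against 26, 11 and 13 for MUT, missed the threshold (0.0575). CDH2 (N-cadherin) had at most 1 count in a library. The rises numbered 2 without WT replicate 1 or with DESeq2, and 3 without WT replicate 2 or MUT replicate 1. AXL and THBS1 passed in all 14 alternative fits, while ACTA2 was lost in DESeq2 (0.0719) and without WT replicate 1 or MUT replicate 1, and TPM2 in DESeq2 (0.0839) and without either WT replicate, MUT replicate 1 or MUT replicate 2. S100A4 lost its call without either WT replicate (0.077 and 0.0589), without MUT replicate 1 (0.0697) and without MUT replicate 3 (0.0615).

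Epithelial genes, among them targets that ZEB1 and SNAI2 repress, mostly fell where they changed. Of 35 tested 10 fell (28.6%) and 1 rose (2.86%), with a median of -0.17. Among all tested genes 12.9% fell and 10% rose. MAL2, a protein of apical transport, went from 362 ± 12.1 CPM (SD, n = 2) to 94.5 ± 9.52 CPM (SD, n = 3), 3.82-fold lower (adjusted p 2.72e-13). The epithelial transcription factor GRHL2 fell 1.96-fold from 45.1 ± 9.34 to 23.4 ± 2.72 CPM, the splicing regulator ESRP1 1.48-fold and KLF5 1.36-fold (adjusted p 0.000307, 0.000172 and 0.00175). CDH1 counts were 43 and 64 in WT libraries against 28, 46 and 49, which is 21.2 ± 0.389 against 11.2 ± 2 CPM, 1.87-fold lower (0.00741). EPCAM fell 1.41-fold (0.0087). The desmosome component PPL, the tight junction protein CLDN7, the adaptor AP1M2 and the transcription factor ELF3 fell as well, and JUP (plakoglobin) rose 1.23-fold (0.0389), a call lost in DESeq2 (0.11) and without WT replicate 1, MUT replicate 1 or MUT replicate 2. DESeq2 called 7 of the falls, with CLDN7 at 0.0693, AP1M2 at 0.0725 and ELF3 at 0.272. These 3 genes were also lost without MUT replicate 3, CLDN7 and ELF3 without WT replicate 1, and EPCAM without MUT replicate 1 (0.0528). The other 24 genes of the list did not pass. Without WT replicate 2 only the falls of MAL2, ESRP1 and KLF5 stayed called, with CDH1 at an adjusted p of 0.0777 and GRHL2 at 0.0548.

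For 17 of these 35 epithelial genes a RefSeq start window was matched. Of their 23 windows 14 held CAGGTG (60.9%), against 20.6% of all windows. The list was partly made of genes known as E-box targets, so this share is a description. It covers genes that fell and genes that did not, and a link of E-boxes to the falls was not tested. CLDN7 is shown because it fell and held 5 of these E-boxes in window 2 of 2 (window 1 held 0). Its 250 bases before the start lie at chr17:7262479-7262728 (minus strand), with the E-boxes in capitals at 174, 135, 20 and 9 bases before the start.
CLDN7: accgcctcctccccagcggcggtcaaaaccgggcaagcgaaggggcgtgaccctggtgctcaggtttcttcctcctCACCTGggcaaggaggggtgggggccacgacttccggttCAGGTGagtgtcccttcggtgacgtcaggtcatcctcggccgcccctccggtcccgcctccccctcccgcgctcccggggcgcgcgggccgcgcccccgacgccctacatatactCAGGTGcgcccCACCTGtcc

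TGF-beta and BMP genes, whose signals can induce SNAI2 and ZEB1, gave 6 falls and 1 rise among 21, with a median of -0.10. These are 28.6% and 4.76%, where 12.9% of all tested genes fell and 10% rose. The BMP receptor BMPR1A fell 1.64-fold, the ligand BMP4 1.49-fold, and the BMP-induced ID3 and ID2 1.48-fold and 1.32-fold (adjusted p 0.00059, 0.000627, 0.000172 and 0.00668). TGFBR2 and TGIF1 fell and LTBP3 rose (0.00695, 0.0099 and 0.0364). The ligand TGFB1 did not pass (edgeR adjusted p 0.0662). It was at 44.4 ± 3.60 CPM for WT against 56.8 ± 6.11 CPM for MUT (SD). TGFB2 (counts of 2 and 2 against 14, 6 and 7) and TGFB3 (1 and 5 against 6, 7 and 11) were not tested. Without WT replicate 1 the falls numbered 3, with ID2 at 0.144, TGFBR2 at 0.173 and TGIF1 at 0.0845, and LTBP3 lost its call in DESeq2 (0.139) and without any one library except MUT replicate 3. RAS and ERK output genes, listed for TMEM158, gave 2 rises and 1 fall among 14. Their shares were 14.3% and 7.14%, against 10% and 12.9% of all tested genes. CCND1 (cyclin D1) and the AP-1 subunit FOSL1 rose 1.55-fold and 1.44-fold (7.14e-05 and 0.000849), and PHLDA1 fell 1.24-fold (0.032). FOSL1 lost its call without WT replicate 2 (0.0553), and PHLDA1 without WT replicate 1 (0.307), MUT replicate 1 (0.132) or MUT replicate 2 (0.12) and under upper-quartile (0.0696) or library-size scaling (0.0837).

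**Figure D3:**
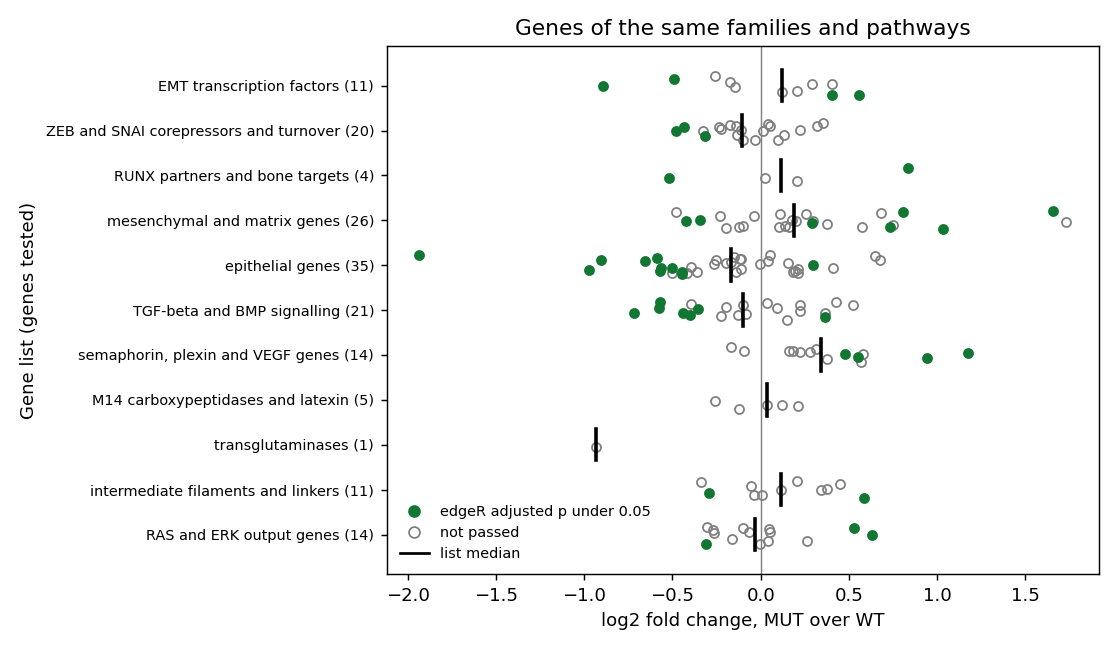
Log2 fold change of MUT over WT for genes in 11 lists of families and pathways of the members, 1 point a gene, filled where edgeR's adjusted p was under 0.05, with a black line at each list's median. Filled points lie to the right for semaphorin and plexin genes and mostly to the left for epithelial genes and for TGF-beta and BMP genes.

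The members lie on 6 chromosomes, with ZEB1, NRP1 and VIM on the short arm of chromosome 10. From the end of ZEB1 to the lowest coordinate of NRP1 is 1.65 Mb. Of the 5 tested genes that start between them ARHGAP12 fell 1.27-fold (edgeR adjusted p 0.00851) and the other 4 did not pass, among them the integrin subunit ITGB1 at 100 ± 3.38 CPM in WT (SD, n = 2) against 108 ± 9.14 CPM for MUT (SD, n = 3), adjusted p 0.494. ARHGAP12 lost its call without WT replicate 2 (0.0818) and MUT replicate 1 (0.061). PARD3, a polarity protein whose lowest coordinate is 932 kb beyond that of NRP1, fell 1.96-fold (1.21e-05). Starts named here are the lowest coordinates of genes, whatever their strand, and other distances are between them. Over all members 126 other tested genes started within 2 Mb, and 12 rose and 12 fell (9.52% each), near the share of all genes, with a median log2 fold change of 0.05. The nearest tested gene to TMEM158, CDCP1 at 142 kb, rose 1.41-fold (0.000772), while UBE2H, 462 kb from CPA4, fell 1.73-fold (7.03e-06). By member the medians of these windows lay between -0.11 (VIM) and 0.16 (TGM2). On the other side of ZEB1, SVIL and JCAD rose (0.0181 and 0.00505). SVIL lost its call in DESeq2 (adjusted p 0.0633) and in edgeR without MUT replicate 3 (0.0577). Its log2 fold change went from 0.74 to 0.47 without WT replicate 1. That of JCAD went from 0.48 to 0.34 without WT replicate 2.

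**Figure D4:**
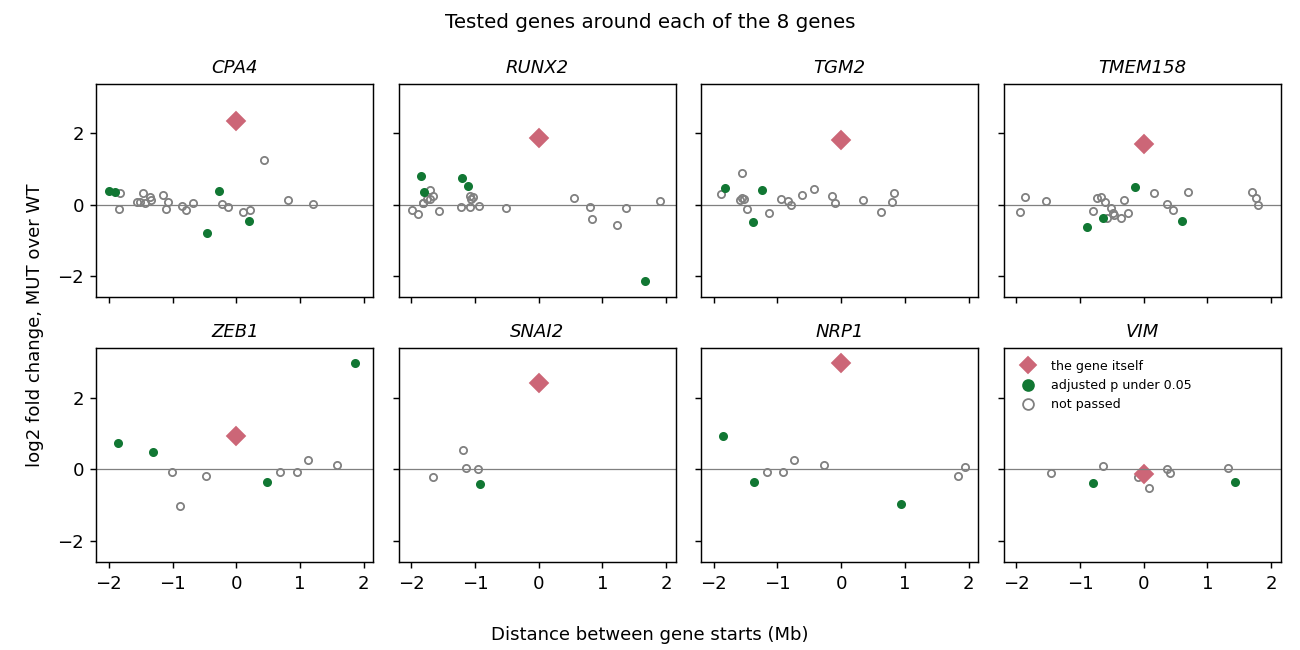
Log2 fold change of MUT over WT for tested genes within 2 Mb of each member's start, by distance between gene starts in Mb. A start here is the lowest coordinate of a gene, whatever its strand. The member itself is the red diamond, filled green circles passed edgeR's adjusted p of 0.05, and in the ZEB1 and NRP1 panels each shows the other as a green circle at 1859 kb.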

How the data were processed

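Footprints were 25 to 35 nucleotide fragments from MNase-digested extract, taken from the single-ribosome fraction, per the labels' protocols. The authors deposited raw whole-number counts per gene. The tools STAR 2.5.2b, cutadapt 4.6, DESeq2 1.42.0 and FastQC 0.12.1 and the build hg38 are named in the submitters' processing notes. The counting tool, strand and treatment of reads mapping to several places are not given in the sources at hand. RNA-seq was not analysed here.

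Counts were tested in R 4.3.3 with edgeR 4.0.16 (filterByExpr with minimum count 10 and total 15, TMM, quasi-likelihood F test of MUT against WT, 3 residual degrees of freedom, Benjamini-Hochberg over 11991 genes, threshold 0.05), after a check on simulated data. Standard errors come from the F statistic, and count ratios carry 95% exact binomial intervals. All 10 library pairs were further apart than counting error allows (1.91 to 8.06 in chi-square per gene). Positions and windows come from RefSeq on GRCh38.p14, where 17077 names matched by symbol.

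Members and lists were chosen with earlier results of these data known. Named genes were EIF6, the members, up to 4 genes of lowest p in each list (2 where none passed) and 2 nearest profiles a member. Levels per coding length were not computed, and neighbourhoods were added after the values were seen. Alternatives were RLE, upper-quartile and library-size scaling, DESeq2, limma-voom 3.58.1, robust dispersion, other count filters, a replicate block and leaving out each library. The labels give same-numbered libraries only the number in common, so whether they were paired is not known. Of the mesenchymal and matrix genes that rose, 1 is not reported here.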

Additional observations from a re-analysis of the deposited data

How the results depend on the processing

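Over 14 alternatives, leaving out 1 library moved the counts of genes to between 509 and 1089 higher and between 732 and 1339 lower, and DESeq2 gave 609 and 948. For the companion lists the range was 11 to 17 rises and 14 to 26 falls when libraries were left out, and DESeq2 gave 10 rises. In the same fits falls of epithelial genes ranged from 3 to 10 and those of TGF-beta and BMP genes from 3 to 6, rises of mesenchymal genes from 2 to 4 and of semaphorin, plexin and VEGF genes from 2 to 4. DESeq2 gave 2 rises of mesenchymal genes. The cause was not tested. Members past the threshold numbered 7 in the main fit, 6 with DESeq2 and 5 with the strict filter (30 counts in 2 libraries, mean of 10 CPM). The members were chosen on this contrast, so these counts are a description and nothing is read from them. The strict filter removed SNAI2, NRP1 and VIM from the test. Signs turned only for genes that did not pass. With 1 library left out, log2 fold changes ranged from -0.296 to 0.15 for VIM (highest without WT replicate 2, and 0.06 without MUT replicate 3), from -0.20 to 0.2039 for MMP13, from -0.248 to 0.00196 for SNAI1, from -0.3669 to 0.18 for ANKRD49, from -0.3652 to 0.0588 for KLHL7 and up to 0.069 for SUPT3H. With the replicate block VIM was at 0.0525 and MMP13 at -0.20, and with limma-voom MMP13 was at -0.0075. Replicate 3 exists only in MUT, so with the replicate number as a block that library adds nothing to the group difference. The block fit thus rests on replicates 1 and 2 of each group, with fewer residual degrees of freedom. Its larger counts are therefore not read as stronger results. With this block 1529 genes were higher and 1909 lower, 7 members were higher, and 23 companion genes rose and 31 fell. AGTPBP1, PLEC and CCN2 gained a call there. In edgeR PLEC and CCN2 also passed with library-size scaling (adjusted p 0.0385 and 0.048) and with no count filter (0.00993 and 0.0389). PLEC passed with upper-quartile scaling (0.0439) and without MUT replicate 3 (0.0342). Without MUT replicate 2, CCN2 and TGM6 passed (0.0159 and 0.0388). LMNB2 passed with library-size scaling (0.0321), and MYC with robust dispersion (0.0421) and limma-voom (0.0452). Deviations of same-numbered libraries correlated at 0.0866 and 0.148, so pairing is a hint at most. Counts of 1 to 3 in WT limit SNAI2 and NRP1.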
